A study of Mus musculus with 27 samples.

Results

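The 10 chemokine ligand genes Ccl2, Ccl7, Ccl12, Ccl3, Ccl4, Ccl5, Cxcl10, Cxcl12, Cxcl16 and Cx3cl1 were followed in the retina of mice with oxygen-induced retinopathy (OIR). They were chosen by symbol from the 40129 genes in the table, and all 10 were among the 27137 genes tested. OIR is a model of retinal neovascularization in which pups breathe 75% oxygen from postnatal day (p) 7 to p12, in which capillaries of the central retina are lost, and then return to room air, where the poorly perfused retina becomes hypoxic. Retinas were compared at p14, the ischaemic stage, and at p17, the neovascular stage. All mice were C57BL/6 wildtypes (WT), of the substrain C57BL/6J by the methods of the study. Mice of the OIR p14 group (n = 6) and the OIR p17 group (n = 8) went through the oxygen exposure, whereas the nOIR p14 group (n = 6) and the nOIR p17 group (n = 6) were controls of the same ages kept in room air throughout. Each library held RNA of the whole retina of 1 mouse, from a single eye or from both eyes pooled, taken after perfusion with saline. The pups came from several litters that were not labelled per mouse, and OIR pups outside a set weight range had been left out by the study. P-values therefore take mice as independent, and they describe whole tissue, in which more cells of a type and more RNA per cell cannot be told apart.

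Chemokines are small secreted or membrane-bound proteins that bind G protein-coupled receptors and direct the migration of leukocytes along a gradient. Several of them are produced by microglia, macrophages, glia or endothelium after injury, and their genes are classic targets of inflammatory signalling through NF-kappaB and interferon. Others are made constantly in healthy tissue: in the retina and brain, neurons make the membrane-bound ligand Cx3cl1, and microglia carry its receptor.

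A mouse had between 17029536 and 33593428 reads counted on genes. OIR p17 mouse S1 had the lowest total, and OIR p17 mouse S2 had the highest level of the lens gene Cryaa of the compared mice, so the results at p17 were also computed without both. Cryaa was at 12404 normalized reads in S2. It was also high in OIR p17 mice S7 (7456) and S8 (8876) and in nOIR p14 mouse S5 (6771), which were kept. The rod markers Sag, Gnat1 and Pde6b summed to at least 500136 normalized reads in every mouse, as the label retina requires. One further control mouse, nOIR p14 S4, was left out because the study had excluded it for lens tissue. Levels are given as normalized reads, which are reads divided by a size factor for each mouse, and log2FC is the difference of group means on the scale log2(normalized reads + 1), which understates the change of genes near 0. A gene was called when its limma p-value, adjusted over the 27137 genes tested, was under 0.05.

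At p14, 7 of the 10 ligands were upregulated in OIR mice and 1 was downregulated. Among all genes tested, 3.18% were called higher and 2.91% lower in this comparison. The upregulated ligands were Ccl2, Ccl7, Ccl12, Ccl3, Ccl4, Ccl5 and Cxcl10, and each of them also had a log2FC above 2, a size reached by 0.744% of all genes tested. The downregulated ligand was Cxcl16. In 6 ligands every OIR p14 mouse lay above every control, and in 1 ligand every OIR p14 mouse lay below, against 1.91% and 1.86% of all genes. At p17, 6 ligands were upregulated and 1 was downregulated, against 7.39% and 5.12% of all genes called higher and lower. These 6 ligands were the same as at p14 except for Ccl5, all of them had a log2FC above 2 (1.90% of all genes), and the downregulated ligand was again Cxcl16. In 5 ligands every OIR p17 mouse lay above every control, against 3.90% of all genes. The median log2FC of the 10 ligands was 3.29 at p14 and 3.50 at p17, beside 0.02 and -0.02 over all genes tested.

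**Figure D1:**
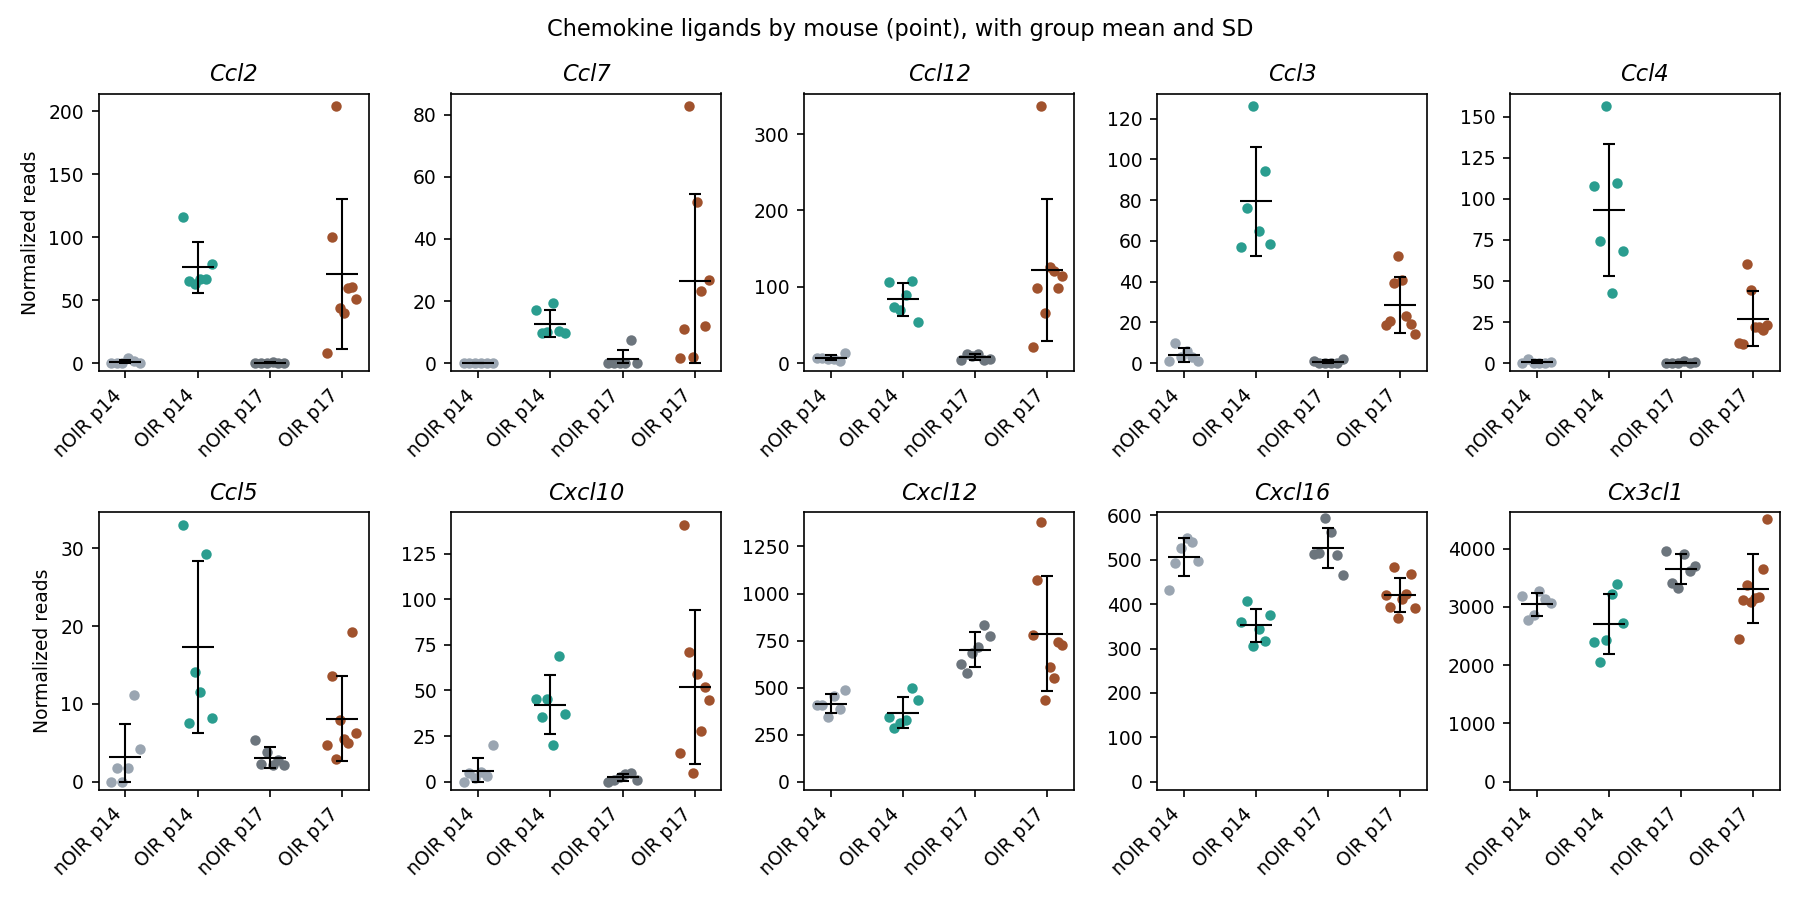
Normalized reads (y axis, linear, a separate scale for each panel) of the 10 ligands in each mouse (point) of the control and OIR groups at p14 and at p17 (x axis). Horizontal bars give the group mean and whiskers the SD, cut at 0 where the SD exceeds the mean. In the panels of Ccl2, Ccl12, Ccl3, Ccl4 and Cxcl10 all OIR mice lie above all controls of their age, whereas the groups of Cxcl12 and Cx3cl1 overlap at each age.

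The ligands of the receptor CCR2, which brings monocytes out of the blood, were Ccl2, Ccl7 and Ccl12, and their genes lie close together on chromosome 11 (Ccl2, Ccl7, Ccl11, Ccl12 in order). Ccl2, the best-known monocyte attractant, was at 0 in 4 of 6 nOIR p14 mice and reached 4.38 normalized reads in the highest. In OIR p14 mice Ccl2 ranged from 62.5 to 116.1 with a median of 66.8. All OIR p14 mice were thus above all controls, and the group means were 76.1 ± 20.4 (SD, n = 6) and 1.07 ± 1.81 (SD, n = 6). The log2FC of Ccl2 was 5.56 with a standard error (SE) of 0.53 (limma, adjusted p = 3.61e-08), which ranked 5 among the 862 genes called higher at p14. At p17, Ccl2 was at 0 in 5 of 6 controls, with 1.10 normalized reads in the other. The OIR p17 mice ranged from 7.78 to 203.8 with a median of 55.2. No OIR p17 mouse overlapped the controls, although the spread within the OIR group was wide (70.7 ± 59.5, SD, n = 8). Its log2FC at p17 was 5.55 ± 0.49 (SE, limma adjusted p = 1.13e-09). As the controls held so few reads, the ratio of pooled reads was also taken: 460 reads against 7 at p14 gave 67.8 (95% exact interval 32.6 to 169), and 610 against 1 at p17 gave 437, with a lower bound of 78.2. Such intervals cover counting error only.

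Ccl7, a second monocyte attractant, had no read in any of the 6 nOIR p14 mice. The OIR p14 mice ranged from 9.66 to 19.5 normalized reads with a median of 10.3, so all of them were above the controls. Taking the controls at a floor of 3 reads over the group, Ccl7 was at least 26.8-fold higher in OIR p14 mice. The fitted log2FC of 3.73 (SE 0.66, limma adjusted p = 0.000416) depends on the added pseudocount. At p17, 5 of 6 controls were at 0 and nOIR p17 mouse S5 had 7.42. The OIR p17 mice spread from 1.56 to 82.7 with a median of 17.5, and 6 of the 8 lay above all controls. The groups overlapped at p17 because of that single control and of OIR p17 mice S1 and S4, the lowest of their group. Its log2FC at p17 was 3.45 ± 0.62 (SE, limma adjusted p = 0.000154).

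Ccl12, a mouse ligand of CCR2, was present in every control. It ranged from 3.05 to 13.6 with a median of 6.62 in nOIR p14 mice and from 54.4 to 107.8 with a median of 81.8 in OIR p14 mice. At p17 it ranged from 4.51 to 12.5 (median 7.46) in controls and from 21.8 to 336.4 (median 106.2) in OIR mice. Controls and OIR mice were separate at each age, and the highest OIR p17 value was that of mouse S3. The log2FC of Ccl12 was 3.43 ± 0.42 at p14 (SE, limma adjusted p = 2.03e-06) and 3.54 ± 0.39 at p17 (SE, limma adjusted p = 8.32e-08).

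Ccl3, Ccl4 and Ccl5 are inflammatory ligands that attract macrophages and T cells, and Ccl3 and Ccl5 bind CCR1. Their genes form the other cluster of members on chromosome 11, where Ccl3 and Ccl4 are adjacent. Ccl3 ranged from 0.888 to 10.1 normalized reads (median 3.04) in nOIR p14 mice and from 56.9 to 126.0 (median 70.5) in OIR p14 mice. At p17, 4 of 6 controls were at 0 and the highest had 2.12, whereas OIR mice ranged from 14.3 to 52.6 with a median of 22.0. The OIR mice of each age lay above all controls of that age. The log2FC of Ccl3 was 4.22 ± 0.43 at p14 (SE, limma adjusted p = 1.25e-07) and 4.33 ± 0.40 at p17 (SE, limma adjusted p = 2.91e-09). At p17 this set 239 reads against 3, a ratio of 57.1 (95% exact interval 19.3 to 279).

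Ccl4 was at 0 in 4 of 6 nOIR p14 mice and at most 2.74 normalized reads in the others. The OIR p14 mice ranged from 42.6 to 156.3 with a median of 91.1. By limma this was the clearest change of a ligand at p14, with a log2FC of 5.95 ± 0.43 (SE, limma adjusted p = 4.02e-10), rank 2 of the 862 genes called higher by size and 3 by p-value. With DESeq2 the adjusted p was lower for Ccl3 (4.22e-18) than for Ccl4 (1.31e-15). Pooled reads of Ccl4 were 555 against 4, a ratio of 143 (95% exact interval 55.6 to 527). At p17, 4 of 6 controls were at 0 and the highest had 1.10, and OIR mice ranged from 11.8 to 60.5 with a median of 22.1. All OIR p17 mice were above the controls, at a lower level than most OIR p14 mice. The log2FC at p17 was 4.26 ± 0.41 (SE, limma adjusted p = 4.72e-09).

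Ccl5, an attractant of T cells and monocytes, was the weakest of the 7 ligands. It ranged from 0 to 11.2 normalized reads (median 1.79) in nOIR p14 mice and from 7.52 to 33.0 (median 12.8) in OIR p14 mice. The groups overlapped, with 4 of 6 OIR p14 mice above all controls. Its log2FC at p14 was 2.49 ± 0.53 (SE, limma adjusted p = 0.00282). At p17, controls ranged from 2.12 to 5.41 (median 2.53) and OIR mice from 2.88 to 19.2 (median 5.86). The p17 difference was not called, with a log2FC of 1.01 (95% interval -0.0029 to 2.02, limma adjusted p = 0.216).

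Cxcl10, an interferon-inducible ligand of CXCR3 that attracts activated T cells, ranged from 0 to 19.9 normalized reads (median 3.81) in nOIR p14 mice. In OIR p14 mice it ranged from 20.4 to 69.1 with a median of 41.2. The lowest OIR p14 mouse was thus just above the highest control. At p17, controls ranged from 0 to 4.64 (median 2.01) and OIR mice from 4.96 to 140.7 (median 48.4). The groups again did not overlap, but OIR p17 mouse S4 lay close to the controls. The log2FC of Cxcl10 was 3.16 ± 0.64 at p14 (SE, limma adjusted p = 0.00166) and 3.74 ± 0.60 at p17 (SE, limma adjusted p = 2.93e-05). Exons of Cxcl10 overlap those of Art3 on the opposite strand, and since the library kit does not mark strand, reads of the shared stretch cannot be told apart.

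Because these genes were upregulated together, the 250 bases before the start of transcription were read for the members that have a RefSeq promoter entry on GRCm38.p6, which were Ccl3, Ccl12, Cxcl10, Cxcl12 and Cx3cl1 (5 of 10). Each window was searched on both strands for the kappaB consensus, for the interferon response motif (2 copies of GAAA with any 2 bases between them), for the AP-1 motif TGANTCA and for ACGTG, the core of the hypoxia response motif. The windows of the upregulated members are shown 5′ to 3′ along the gene, with every match in capitals: Cxcl10 on the minus strand at chr5:92348890-92349139, Ccl3 on the minus strand at chr11:83649379-83649628 and Ccl12 on the plus strand at chr11:82101595-82101844.
Cxcl10: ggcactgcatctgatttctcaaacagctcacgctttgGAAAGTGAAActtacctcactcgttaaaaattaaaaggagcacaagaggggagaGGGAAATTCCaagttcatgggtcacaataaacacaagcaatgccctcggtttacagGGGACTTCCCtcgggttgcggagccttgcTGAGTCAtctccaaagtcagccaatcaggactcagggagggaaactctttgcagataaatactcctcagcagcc
Ccl3: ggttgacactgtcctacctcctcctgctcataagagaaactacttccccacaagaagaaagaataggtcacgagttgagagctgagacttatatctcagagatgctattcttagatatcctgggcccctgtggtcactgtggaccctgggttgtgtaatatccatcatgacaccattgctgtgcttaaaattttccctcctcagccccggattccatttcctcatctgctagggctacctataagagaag
Ccl12: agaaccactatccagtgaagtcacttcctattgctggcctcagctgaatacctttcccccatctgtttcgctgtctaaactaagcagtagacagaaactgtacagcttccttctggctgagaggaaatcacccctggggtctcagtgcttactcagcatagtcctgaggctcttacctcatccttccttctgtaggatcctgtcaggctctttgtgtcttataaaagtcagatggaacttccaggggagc
The Cxcl10 window held the interferon response motif GAAAGTGAAA at 213 to 204 bases before the start, matches of the kappaB consensus at 159 to 150 (GGGAAATTCC) and at 103 to 94 (GGGACTTCCC), and the AP-1 motif TGAGTCA at 74 to 68. The windows of Ccl3, Ccl12, Cxcl12 and Cx3cl1 held no match of the 4 motifs, which says only that these letters are not within 250 bases. Of 32851 promoter windows of the same length, 3.90% held the kappaB consensus, 2.98% the interferon response motif, 6.75% TGANTCA and 16.6% ACGTG. A match is a description of the sequence and no evidence that a factor binds there.

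The other 3 members, Cxcl12, Cxcl16 and Cx3cl1, were abundant in the control retina. Cxcl12 signals through CXCR4 and is scavenged by ACKR3. It ranged from 341.9 to 487.7 normalized reads (median 407.6) in nOIR p14 mice and from 283.4 to 496.1 (median 338.0) in OIR p14 mice. At p17 it ranged from 578.1 to 832.1 (median 701.8) in controls and from 433.7 to 1378 (median 734.5) in OIR mice. Controls and OIR mice overlapped broadly at each age. The log2FC was -0.20 at p14 (95% interval -0.59 to 0.20, limma adjusted p = 0.698) and 0.09 at p17 (95% interval -0.28 to 0.45, limma adjusted p = 0.842), so that a change of more than 0.59 in either direction lies outside both intervals.

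Cxcl16, a membrane-bound ligand of CXCR6 that also takes up oxidized lipoproteins, was the downregulated member. It ranged from 432.4 to 550.0 normalized reads (median 512.1) in nOIR p14 mice and from 306.5 to 408.0 (median 352.9) in OIR p14 mice. All OIR p14 mice lay below all controls. The log2FC at p14 was -0.53 ± 0.10 (SE, limma adjusted p = 0.000689). At p17, controls ranged from 466.4 to 593.4 (median 514.7) and OIR mice from 369.2 to 483.4 (median 416.6). These ranges overlapped, and the log2FC of -0.33 ± 0.09 (SE, limma adjusted p = 0.0135) was no longer called when each mouse was scaled to the same total (log2FC -0.26, adjusted p = 0.0571). Exons of Cxcl16 overlap those of Zmynd15 on the opposite strand, with the same limit on reads of the shared stretch.

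Cx3cl1 (fractalkine), the neuronal ligand of the microglial receptor CX3CR1, had the highest level of all members. It ranged from 2767 to 3269 normalized reads (median 3097) in nOIR p14 mice and from 2059 to 3395 (median 2576) in OIR p14 mice. At p17 it ranged from 3317 to 3955 (median 3662) in controls and from 2455 to 4504 (median 3168) in OIR mice. OIR mice reached lower than any control at each age, but the groups overlapped and no change was called. The log2FC was -0.19 at p14 (95% interval -0.43 to 0.04, limma adjusted p = 0.432) and -0.16 at p17 (95% interval -0.37 to 0.06, limma adjusted p = 0.429).

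**Figure D2:**
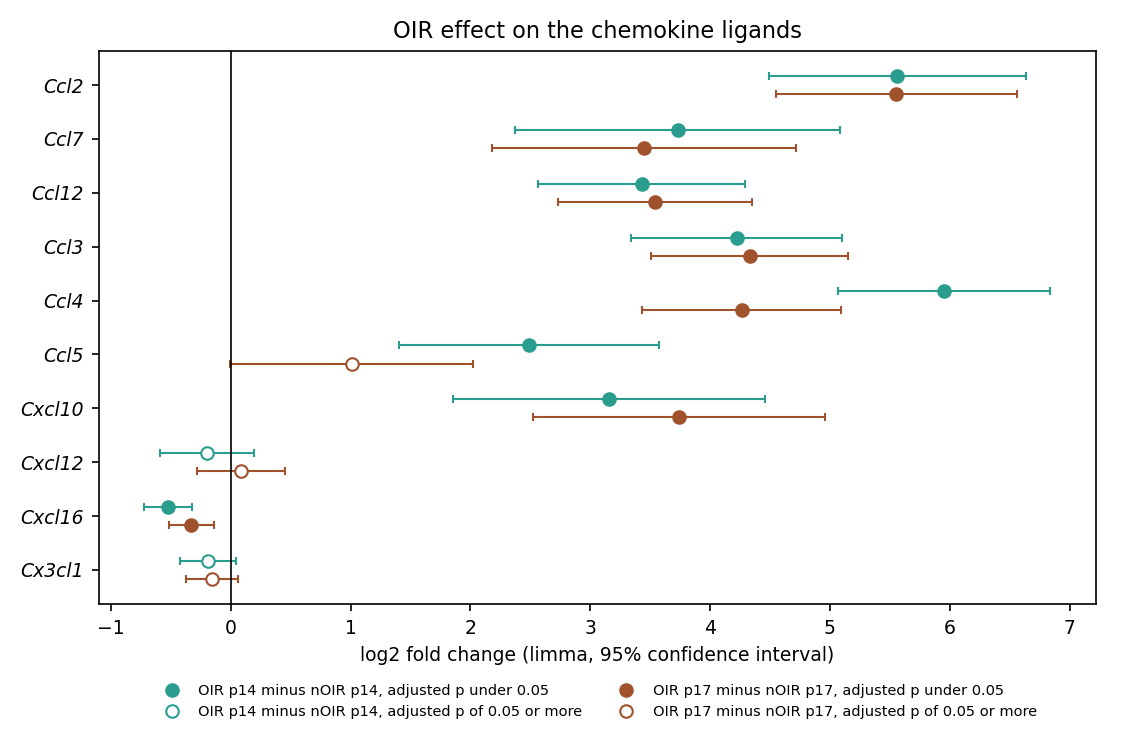
Log2FC (x axis) of OIR mice against controls of the same age for each ligand (y axis), at p14 (green) and p17 (brown), with the 95% confidence interval of the limma fit. Filled points passed an adjusted p of 0.05, and open points did not. At p14 the 7 points from Ccl2 to Cxcl10 are filled and lie at 2.49 or higher, and at p17 that of Ccl5, at 1.01, is open.

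Whether the OIR effect differed between the ages was tested as the p17 effect minus the p14 effect in the same fit. No ligand was called by limma, edgeR or DESeq2, beside 1.58% of all genes in the limma fit. With limma, 1 of the 10 ligands had an unadjusted p under 0.05 (0 with edgeR and 0 with DESeq2). Of the 27137 genes tested, 1712 passed this unadjusted threshold with a positive and 1181 with a negative difference, a similar share. That ligand was Ccl4, with a difference of -1.69 on the log2 scale (SE 0.59, limma unadjusted p = 0.00826, adjusted p = 0.210). Over 36 alternatives the difference of Ccl4 ran from -1.97 to -0.96 and was called in 0. For Ccl5 the difference was -1.48 (95% interval -2.96 to 0.0030, limma adjusted p = 0.471). Ccl5 passed the threshold at p14 and not at p17, and its effects are therefore not shown to differ. The intervals of the remaining ligands that were upregulated were wide, for example -1.48 to 1.46 for Ccl2 and -1.10 to 1.31 for Ccl3, and they hold for the limma fit with a pseudocount of 1. Other settings gave uncalled differences outside the intervals of that fit, of 2.06 for Ccl3 with a pseudocount of 0.1 (adjusted p = 0.456), 1.98 for Ccl2 with edgeR and -2.50 for Ccl7 with edgeR (adjusted p = 0.661). The effects at the 2 ages come from separate mice and separate controls, but all share 1 estimate of the spread.

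Within OIR mice, levels at p17 were compared with those at p14, which includes normal maturation. In this comparison 1 ligand was higher and 2 were lower, against 4.11% and 1.81% of all genes. Cxcl12 was higher at p17, with 7 of 8 OIR p17 mice above all OIR p14 mice and a log2FC of 1.04 ± 0.18 (SE, limma adjusted p = 0.000297). Ccl3 was lower, and all OIR p17 mice lay below all OIR p14 mice (an arrangement seen in 0.387% of all genes), with a log2FC of -1.51 ± 0.40 (SE, limma adjusted p = 0.0197). This call was lost without OIR p14 mouse S3, the highest in Ccl3 (log2FC -1.37, adjusted p = 0.0589). Ccl4 was lower as well, with overlapping groups and a log2FC of -1.82 ± 0.41 (SE, limma adjusted p = 0.00463), a call lost with a pseudocount of 0.1 (-1.87, adjusted p = 0.196). The ligands of CCR2 and Cxcl10 were not called, at log2FC of -0.50 for Ccl2, 0.23 for Ccl7, 0.26 for Ccl12 and -0.10 for Cxcl10 (limma, adjusted p from 0.653 to 0.955). Whether Ccl3 and Ccl4 differed in this from the ligands of CCR2 was not tested. Cxcl16 was not called by limma (log2FC 0.26, adjusted p = 0.104) but was called higher at p17 by DESeq2 (0.25, adjusted p = 0.0394). Cx3cl1 was not called with all mice (log2FC 0.30, limma adjusted p = 0.108), but was called without OIR p14 mouse S5 (0.37, adjusted p = 0.0414) or without OIR p17 mouse S1 (0.36, adjusted p = 0.0296).

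In the controls, no ligand was called between p17 and p14 by limma, in a comparison in which 0.317% of all genes were called. Of the 10 ligands, 3 had an unadjusted p under 0.05 with limma, beside 924 higher and 1075 lower of the 27137 genes tested. edgeR called 0 ligands. DESeq2 called 1, which was Cxcl12, beside 109 higher and 127 lower of the 19240 genes it tested. Cxcl12 was higher in every nOIR p17 mouse than in any nOIR p14 mouse, with a log2FC of 0.76 ± 0.19 (SE, limma adjusted p = 0.0898, DESeq2 adjusted p = 0.0212). Without OIR p17 mouse S3, whose Cxcl12 was the highest of all, limma called this difference (adjusted p = 0.0333). Cx3cl1 was also higher in all nOIR p17 mice, at a log2FC of 0.26 (SE 0.11, limma adjusted p = 0.589). An arrangement with all p17 controls on top was seen in 0.814% of all genes. Ccl3 had a log2FC of -1.62 (SE 0.43, limma adjusted p = 0.129) on 26 reads at p14 and 3 at p17.

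**Figure D3:**
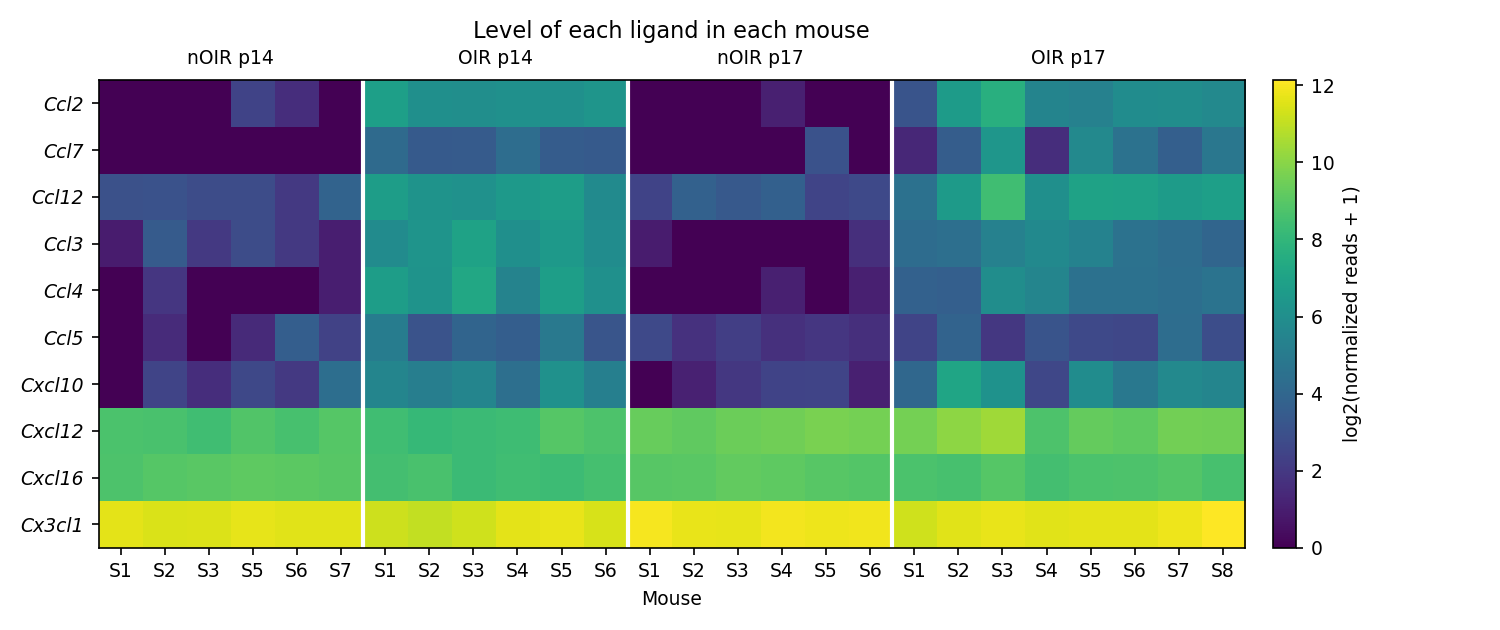
Level of each ligand (rows) in each of the 26 mice (columns, by group, with controls to the left of OIR mice at each age), in colour as log2(normalized reads + 1) from 0 (dark) to above 12 (yellow). Rows Ccl2 to Cxcl10 are dark in controls and lighter in OIR mice, with more contrast among the 8 OIR p17 mice than among the 6 OIR p14 mice, whereas Cxcl12, Cxcl16 and Cx3cl1 are bright in every column.

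In Ccl2, Ccl7, Ccl12 and Cxcl10, the 8 OIR p17 mice spanned a wider range than the 6 OIR p14 mice. The highest OIR p17 mouse had 203.8 normalized reads of Ccl2 and the lowest 7.78, whereas the OIR p14 mice stayed between 62.5 and 116.1. OIR p17 mouse S3 was the highest of its group in 6 of the 10 ligands, namely Ccl2, Ccl4, Ccl7, Ccl12, Cxcl12 and Cxcl16, and the lowest in Ccl5. OIR p17 mouse S1, the library with the fewest reads, was the lowest in 4 ligands (Ccl2, Ccl7, Ccl12 and Cx3cl1). OIR p17 mouse S2 was the highest in Cxcl10 alone and the lowest in Ccl4. With S1 and S2 left out, the 7 ligands called at p17 were the same, and their log2FC ran from -0.31 for Cxcl16 to 5.83 for Ccl2. Among OIR p14 mice, S5 was the highest in 4 ligands (Ccl12, Cxcl10, Cxcl12 and Cx3cl1). No OIR mouse was the highest of its group in all of the upregulated ligands.

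Levels of different genes were compared per length, as normalized reads per kilobase of annotated exons. In nOIR p14 mice, Cx3cl1 came first at 775 ± 49.6 (SD, n = 6), followed by Cxcl16 at 168 ± 14.1, Cxcl12 at 50.7 ± 6.28 and Ccl12 at 13.4 ± 6.49. The ranges of these 4 did not overlap with each other, whereas Ccl3, Ccl5, Cxcl10, Ccl4, Ccl2 and Ccl7, each at 5.27 or less, had ranges that overlapped with each other, except that Ccl3 was above 0 in every mouse and Ccl7 in none. The range of Ccl12 (5.69 to 25.3) also overlapped those of Ccl3 (up to 13.1), Ccl5 (up to 11.7) and Cxcl10 (up to 8.83). In OIR p14 mice, Cx3cl1 was again first at 688 ± 131 (SD, n = 6). Behind it, Ccl12 (156 ± 40.0), Ccl4 (141 ± 60.7), Cxcl16 (117 ± 12.4) and Ccl3 (104 ± 34.8) had overlapping ranges, so that Ccl12, Ccl4 and Ccl3 could not be put above or below Cxcl16. Ccl2 (66.9 ± 17.9) and Cxcl12 (44.8 ± 9.94) followed by their means. The range of Ccl2 (54.9 to 102) overlapped those of Ccl12, Ccl4, Cxcl16 and Ccl3 and that of Cxcl12 (34.7 to 60.7). Cxcl10, Ccl5 and Ccl7 were lowest at 16.0 to 18.7 with overlapping ranges. In OIR p17 mice (n = 8) the order was Cx3cl1 at 843 ± 149, Ccl12 at 228 ± 173, Cxcl16 at 139 ± 12.8 and Cxcl12 at 96.2 ± 37.2, and Ccl5 was last at 8.46 ± 5.75. Apart from Cx3cl1, whose range lay almost fully above that of Ccl12, neighbours in this order overlapped.

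The receptors of these ligands were read in the same fit. Of 10 receptors read from the table, 8 were tested, since Ccr3 and Cxcr3, the receptor of Cxcl10, fell under the minimum level. At p14 limma called 0 of the 8 receptors, beside 3.18% of all genes called higher and 2.91% lower. Of the 8 receptors, 3 had an unadjusted p under 0.05 with limma, beside 2404 higher and 2204 lower of the 27137 genes tested. edgeR and DESeq2 each called 1, which was Ccr1 (adjusted p = 0.0407 and 0.0160). OIR p14 mouse S4 held 77 of the 114 Ccr1 reads of its group. The median log2FC of the receptors at p14 was 0.23. At p17, 6 of 8 were upregulated and 0 were downregulated, against 7.39% and 5.12% of all genes, and the median log2FC was 1.68. The upregulated receptors were Cx3cr1, Ccr1, Ccr2, Cxcr4 and the scavengers Ackr2 and Ackr3. edgeR and DESeq2 also called 6 each, but DESeq2 gave Ccr2 no adjusted p and called Ackr1 lower. Cx3cr1, the microglial receptor of fractalkine, ranged from 307.2 to 417.8 normalized reads (median 356.6) in nOIR p14 mice, from 316.3 to 637.4 (median 398.8) in OIR p14 mice, from 184.2 to 256.2 (median 222.5) in nOIR p17 mice and from 563.2 to 800.2 (median 673.3) in OIR p17 mice. The OIR groups overlapped the controls at p14 and were separate from them at p17. The log2FC of Cx3cr1 was 0.31 at p14 (SE 0.15, limma adjusted p = 0.279) and 1.62 at p17 (SE 0.14, limma adjusted p = 5.79e-10), and the difference of 1.31 passed the test (SE 0.20, limma adjusted p = 0.000199). In controls Cx3cr1 was lower at p17 than at p14 (log2FC -0.70, limma adjusted p = 0.0280), a call kept in 19 of 26 fits that each left out 1 mouse and lost, for example, without nOIR p14 mouse S3 (-0.65, adjusted p = 0.109).

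Cxcr4, the receptor of Cxcl12 on leukocytes and on endothelial tip cells, ranged from 12.5 to 29.8 (median 17.4) in nOIR p17 mice and from 41.2 to 114.4 (median 85.7) in OIR p17 mice. The groups were separate, with a log2FC of 2.00 (SE 0.34, limma adjusted p = 6.37e-05). Ackr3, which scavenges Cxcl12, had a log2FC of 0.79 (SE 0.22, limma adjusted p = 0.0169), and its call was lost without nOIR p17 mouse S4 (0.71, adjusted p = 0.0538). Ackr2, which scavenges inflammatory CC ligands, had a log2FC of 2.08 (SE 0.47, limma adjusted p = 0.00219). nOIR p17 mouse S4 had 2.21 normalized reads of Ackr2 and the other 5 controls 41.8 to 73.3, and without that mouse the log2FC was 1.37 (adjusted p = 0.000726). With all mice, both receptors of Cxcl12 were called upregulated at p17 while a change of their ligand was not detected. Ccr1 rose from 3 reads in all nOIR p17 mice together to 207 in OIR p17 mice, a ratio of 49.5 (95% exact interval 16.7 to 242, limma adjusted p = 0.000455). Ccr2, the monocyte receptor of Ccl2, Ccl7 and Ccl12, had 0 reads in nOIR p17 mice and 36 in OIR p17 mice, at least 8.60-fold higher against a floor of 3 reads (limma, adjusted p = 0.0113). OIR p17 mouse S5 held 23 of the 36 reads. Without it the bound was 3.58-fold, and Ccr2 fell under the minimum level and was not tested. At p14, when its ligands were already high, Ccr2 had 1 read over all OIR mice and 3 over all controls. Cxcr6, the receptor of Cxcl16, was not called at either age, with a log2FC of 0.73 at p14 (95% interval 0.050 to 1.41, limma unadjusted p = 0.0362, adjusted p = 0.248) and 0.27 at p17 (limma, adjusted p = 0.689). Ackr1, whose exons overlap those of Cadm3, was not called at p17 by limma (adjusted p = 0.0702) or edgeR (adjusted p = 0.0783), and was called lower by DESeq2 (log2FC -0.33, adjusted p = 0.0464).

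**Figure D4:**
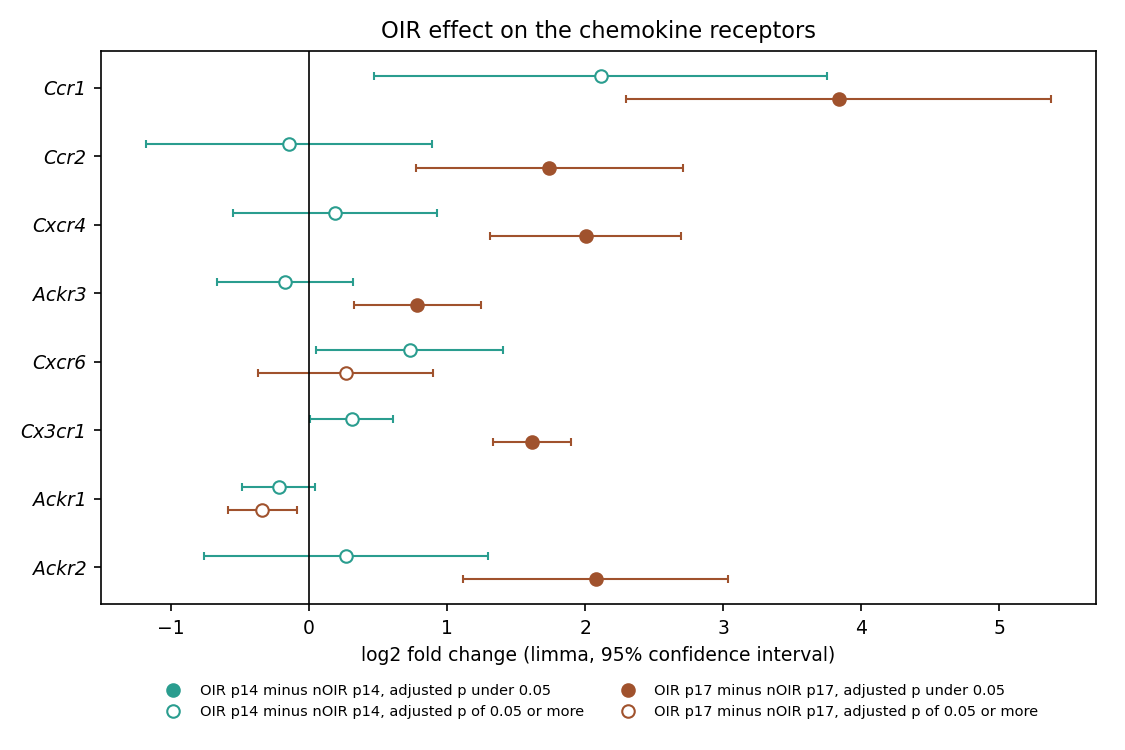
Log2FC (x axis) of OIR mice against controls of the same age for the 8 receptors tested (y axis), at p14 (green) and p17 (brown), with the 95% confidence interval of the limma fit. Filled points passed an adjusted p of 0.05, and open points did not. All p14 points are open, and 6 of the 8 p17 points are filled, from 0.79 for Ackr3 to 3.83 for Ccr1.

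Of 27 further chemokine ligands in the table, 19 were tested. At p14, 1 was upregulated and 1 was downregulated, against 3.18% and 2.91% of all genes, with a median log2FC of 0.34. edgeR called 2 as well, and DESeq2 called 3, adding Cxcl1 (log2FC 3.14, DESeq2 adjusted p = 0.0384, edgeR adjusted p = 0.0765). Cxcl2, a neutrophil attractant, had no read in any nOIR p14 mouse and ranged from 6.44 to 98.8 normalized reads (median 36.0) in OIR p14 mice. It was at least 86.6-fold higher in OIR p14 mice against a floor of 3 reads (limma, adjusted p = 1.90e-05). Within OIR mice Cxcl2 was called lower at p17 than at p14 by limma (log2FC -3.02, adjusted p = 0.00332) and edgeR (-2.91, adjusted p = 0.0271) but not by DESeq2 (-2.97, adjusted p = 0.106), which called 0 of the 19 in that comparison. Of these 19, limma called 3 higher at p17 within OIR mice, against 4.11% of all genes, namely Pf4 (log2FC 2.66, adjusted p = 0.00905), Ccl11 (2.25, adjusted p = 0.0222) and Ccl8 (1.85, adjusted p = 0.0427). edgeR called Ccl8 of these (adjusted p = 0.0422), but not Pf4 (adjusted p = 0.0989) or Ccl11 (adjusted p = 0.133). With limma, the calls of Ccl11 and Ccl8 were kept in 21 and 15 of 26 fits that each left out 1 mouse. Cxcl14, which like Cxcl16 is abundant in the control retina, was lower in all OIR p14 mice than in any control (1326 ± 160 against 1970 ± 236, SD, n = 6 each, log2FC -0.57, limma adjusted p = 0.00772). At p17, 4 were upregulated and 0 were downregulated, against 7.39% and 5.12% of all genes. Pf4, a ligand stored in platelets and made by some macrophages, ranged from 0 to 5.76 in nOIR p17 mice and from 32.9 to 92.3 in OIR p17 mice, with pooled reads of 9 and 509 (ratio 40.5, 95% exact interval 21.2 to 89.2, limma adjusted p = 1.42e-06). Ccl11 and Ccl8, the neighbours of Ccl7 and Ccl12 on chromosome 11, had 0 reads in nOIR p17 mice, and were at least 18.2-fold and at least 13.1-fold higher in OIR p17 mice (limma, adjusted p = 0.00213 and 0.0130). Without OIR p17 mouse S5, which held 23 of its 55 reads, the bound for Ccl8 was 8.81-fold. At p14 Ccl11 had 5 reads over all OIR mice and Ccl8 had 1, whereas Ccl2, Ccl7 and Ccl12 of the same gene cluster were already high. Ccl6 had a log2FC of 1.37 at p17 (SE 0.39, limma adjusted p = 0.0149).

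Markers of the cells that could make or follow these ligands moved as follows, and their part in the results was not tested. The shares of all genes called higher and lower were 3.18% and 2.91% at p14 and 7.39% and 5.12% at p17. Of 10 markers of microglia and macrophages, 2 were upregulated at p14 (C1qa and Cd68) and 7 at p17, and limma called 0 lower at either age. Their summed level ranged from 1959 to 2413 normalized reads in nOIR p14 mice, 1922 to 2709 in OIR p14 mice, 1625 to 1954 in nOIR p17 mice and 2621 to 4734 in OIR p17 mice. The groups thus overlapped in this sum at p14, when the 7 ligands were already upregulated, and were separate at p17. Single markers of this list went in both directions at p14. P2ry12 had a log2FC of -0.79 (limma, adjusted p = 0.0636) and Tmem119 of -0.18 (limma, adjusted p = 0.846), whereas the others had positive values. The 4 monocyte markers summed to 0 to 3.29 in OIR p14 mice, against 0 to 2.74 in nOIR p14 mice. In OIR p17 mice they summed to 7.78 to 41.1, against 0 to 3.19 in nOIR p17 mice. Ms4a4c and Chil3 were at 0 in every group except OIR p17. Of the 6 markers of T and NK cells in the table, Cd3e, Cd3d, Nkg7 and Gzma were at 0 in all OIR p14 mice, the last 2 of them also in all nOIR p14 mice, and each was above 0 in at least 1 OIR p17 mouse. The sum of the 6 was 65.5 to 85.7 in OIR p14 mice and 36.8 to 78.9 in nOIR p14 mice, and 42.7 to 97.4 in OIR p17 mice and 20.4 to 73.9 in nOIR p17 mice. Most of this sum was Cd8a, with means of 68.7 and 49.3 in these p14 groups and 54.8 and 41.4 in these p17 groups. The 5 neutrophil markers summed to at most 9.11 in OIR p14 mice and to 3.11 to 40.5 in OIR p17 mice, beside at most 10.5 and 10.6 in the controls, so that the groups overlapped at each age. Of the 4 tested, limma called S100a8 at p17, whereas edgeR called 0 and DESeq2 called 1. Mpo was at 0 in all groups except OIR p17. The 3 B cell markers summed to 5.69 to 35.3 in OIR p14 mice and to 13.5 to 62.8 in OIR p17 mice, beside 1.05 to 34.6 and 14.4 to 46.3 in the controls. Of the 5 markers of Müller glia and astrocytes, Gfap was upregulated and 3 were downregulated at each age. Among neurons, limma called 1 of 3 rod markers lower at p14 (Gnat1, log2FC -0.52) and 2 at p17 (Sag, -0.39, and Pde6b, -0.24), and of 4 ganglion cell markers Nefl was called lower at each age (-0.44 and -0.50). Endothelial markers went in both directions at p14 (Pecam1 up, Cldn5 down), and of the 3 mural markers Rgs5 was downregulated at p14, with all OIR mice below all controls (log2FC -1.10, limma adjusted p = 1.75e-05). At p17 all 4 endothelial markers were upregulated, as were all 3 mural and all 3 red blood cell markers.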

How the data were processed

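RNA of whole mouse retinas was sequenced by the authors, 1 library per mouse. Per the labels and the study's methods, SMARTer cDNA was read, mapped with STAR 2.7.8a to the GENCODE M28 mouse reference and counted per gene with featureCounts 2.0.1. The deposited signal, normalized reads, was made by the authors from these counts with 1 DESeq2 (version 1.34) size factor for each mouse. Values were whole multiples of a step in 100% of cases (tolerance 0.001 reads), so whole reads were recovered. The deposited table also holds the authors' group means, log2 fold changes and adjusted p-values, which were not used. Human samples were not analysed here, and a receptor and a cell marker of the lists are not reported here.

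Normalized reads of 26 mice were put on the scale log2(x + 1), genes with a mean of at least 1 were kept (27137 of 40129), and limma 3.58.1 with a trend was fitted to the 4 groups in R 4.3.3, with Benjamini-Hochberg adjustment. All 10 members are named. Receptors are given by counts and values, and of the other ligands those called at p14 or p17 are named. The members and lists were chosen with earlier results of these data known, so a pattern in them is no independent evidence. Genes with few reads also have ratios of pooled reads with 95% exact (Clopper-Pearson) intervals, or a floor of 3 reads over the group, which cover counting error only, as PCR copies were not removed. Lengths and exon overlaps are of GENCODE M21, and gene order and promoters of RefSeq GRCm38.p6, not the authors' build. No mouse pair of a group was a copy of another (chi-square per degree of freedom at least 9.39 over genes with at least 20 reads).

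Other settings tried were a minimum mean of 10, no minimum, a pseudocount of 0.1, nOIR p14 S4 added, the compared groups only, a replicate block, the same total per mouse, quantile normalization, an adjusted p under 0.01, the study's rule (log2FC above 2 or below -2), DESeq2 1.42.0 and the quasi-likelihood test of edgeR 4.0.16, each run on recovered reads, and leaving out each mouse. Leaving out OIR p17 mice S1 and S2 was chosen after seeing the data. Limma was tested on simulated data for the p14 comparison (25817 genes, 200 changed by 3 on the log2 scale), and it recovered 98.0% of them with 7 false calls. Python 3.11.15, numpy 2.4.6, pandas 2.3.3, scipy 1.17.1 and matplotlib 3.10.9 were used.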

Additional observations from a re-analysis of the deposited data

Results flagged for a closer look

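In 2 ligands, a single control mouse stood apart from its group at p17. Ccl2 was at 1.10 normalized reads in nOIR p17 mouse S4, which is 1 read, and at 0 in the other 5. Ccl7 was at 7.42 in nOIR p17 mouse S5, which is 8 reads, and at 0 in the other 5. The gap of the highest mouse to the next was compared with the range of the group by Dixon's test for 39 sets of values, of which chance alone puts about 1 in 20 apart. That rate does not apply to these 2 sets, in which 5 of 6 mice are at 0, since any read in the other mouse then sets it apart.

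Among the 8 receptors and 19 other ligands tested, 2 genes, beside 1.58% of all genes, had an OIR effect that differed between the ages by the test of the difference in limma. For Cx3cr1 the log2FC at p17 exceeded that at p14 by 1.31 (adjusted p = 0.000199), and for Pf4 by 4.12 (adjusted p = 0.0151). The difference for Cx3cr1 was also called by edgeR and DESeq2 (adjusted p = 0.000322 and 4.27e-07), whereas that for Pf4 was called by DESeq2 (adjusted p = 0.0162) and not by edgeR (adjusted p = 0.101). For Cxcr4 the difference of 1.82 was not called by limma (adjusted p = 0.0557) but was called by edgeR (1.93, adjusted p = 0.0274) and DESeq2 (1.93, adjusted p = 0.00237).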

How the results depend on the processing

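The ligands called numbered 7 or 8 at p14 and 6 or 7 at p17 under every alternative, and the ligands called were always among those of the main result. No ligand was called for the difference of effects under any alternative. Leaving out 1 mouse at a time gave 8 calls at p14, 7 at p17, 0 for the difference, 0 to 1 in controls and 2 to 4 between the OIR ages. In controls, 1 ligand was called with a pseudocount of 0.1 (Ccl3, log2FC -3.60, adjusted p = 0.0133), with the compared groups only (Cxcl12, adjusted p = 0.00256) and with DESeq2 (Cxcl12, adjusted p = 0.0212). Between the OIR ages, 1 was called with a pseudocount of 0.1 and 0 under the study's rule. Ccl3 lost its call between the OIR ages with a pseudocount of 0.1 (adjusted p = 0.205), with the replicate block (log2FC -1.26, adjusted p = 0.112) and without OIR p17 mice S1 and S2 (adjusted p = 0.0564), and Ccl4 with a pseudocount of 0.1 (adjusted p = 0.196). The cause was not tested.

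Of 1932 recomputed values of single ligands, 1867 kept their direction and their side of the threshold. Signs turned in 44, all of which had not been called. For the difference of effects, Ccl2 turned to 0.53 with a pseudocount of 0.1, 0.39 with nOIR p14 S4, 0.11 with the replicate block, 1.98 with edgeR, 1.98 with DESeq2 and 0.27 without OIR p17 mice S1 and S2, where Ccl7 turned to 0.22. With the block, the difference was -0.11 for Cxcl10, -0.049 for Cx3cl1 and -0.075 for Ccl12, and with quantile normalization -0.0040 for Ccl12. Cxcl10 between the OIR ages was 0.33 with edgeR and 0.31 with DESeq2, and Cxcl12 at p17 was -0.013 without S1 and S2. Leaving out single mice, the difference ran from -0.36 to 0.36 for Ccl2, -0.18 to 0.35 for Ccl3, -0.14 to 0.42 for Ccl12, -0.63 to 0.23 for Ccl7 and -0.039 to 0.11 for Cx3cl1. Cxcl12 at p17 ran from -0.040 to 0.20, Ccl4 and Ccl12 in controls from -0.28 to 0.15 and from -0.038 to 0.33, and Cxcl10 and Ccl7 between the OIR ages from -0.37 to 0.28 and from -0.12 to 0.60.

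Replicate numbers did not pair the mice: over 34 same-numbered pairs the correlation of deviations ran from -0.11 to 0.16, 4 were over 0.1, and 5 of 26 mice correlated best with their own number. With the replicate block, 8 ligands were called at p14, 7 at p17, 0 in controls and 2 between the OIR ages. The controls held 0 to 8 reads over the group of Ccl2, Ccl4 and Ccl7 at each age and of Ccl3 at p17, which limits the precision of their log2FC. Leaving out 1 mouse at a time, the ratio of pooled reads ran from 55.6 to 194 for Ccl2 and 117 to 473 for Ccl4 at p14, and from 124 to 470 for Ccl2, 46.8 to 144 for Ccl3, 66.5 to 139 for Ccl4, 14.6 to 44.8 for Ccl7, 40.2 to 122 for Ccr1 and 33.0 to 100.3 for Pf4 at p17, where 124 and 44.8 are bounds at a floor of 3 reads, since the remaining controls had none.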
